A study of Mus musculus with 3 samples.

Results

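Vitamin A reaches its receptors through a short chain of proteins. Retinol enters cells, partly through the membrane receptor STRA6, is oxidised to retinaldehyde by dehydrogenases such as RDH10, and is oxidised again to retinoic acid by the ALDH1A enzymes. DHRS3 runs the first step backwards. Inside the cell CRABP1, CRABP2 and FABP5 carry retinoic acid, and the CYP26 enzymes hydroxylate it for disposal. F9 embryonal carcinoma cells are a classical system for this pathway, because added retinoic acid turns them into endoderm. The genes examined here were the 9 that encode those proteins, chosen by name: Stra6, Rdh10, Aldh1a2, Dhrs3, Crabp1, Crabp2, Fabp5, Cyp26a1 and Cyp26b1. Every probe set annotated with 1 of these symbols alone was used, which gave 11 of the 45101 probe sets on the array and 9 of 18193 genes with such a probe set, 2 each for Fabp5 and Rdh10 and 1 for each of the others.

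The samples were 3 labelled replicates of total RNA from the mouse line F9, undifferentiated and given no agent, grown on plates coated with 0.2% gelatin in DMEM with 10% fetal calf serum and taken at about 80% confluence. Each was measured on 1 Affymetrix Mouse Genome array. F9 is a single tumour-derived line, and the labels do not say whether the replicates were separate cultures, and the p-values therefore cover no more than the spread among these 3 samples, which could be technical. All 3 samples form 1 group, with no treated or differentiated counterpart, so each gene was compared with background on the same arrays. In bulk RNA, fewer cells expressing a gene and less RNA per cell cannot be told apart.

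Background was the signal of 126 probe sets for gene families with narrow expression, namely hair keratin-associated proteins and the receptors for odours, pheromones and taste. Its 95th percentile, called the threshold below, was 44.6, 46.1 and 43.2 on replicates 1, 2 and 3, in the arrays' linear signal units. A probe set was called above or below when the mean of log2 signal minus log2 threshold passed limma's moderated one-sided test at an adjusted p under 0.05 (Benjamini-Hochberg, across the whole array). A probe set with neither call was not resolved by 3 arrays, and no call shows that a transcript is absent. The pairwise Pearson correlation of log2 signals across all probe sets was 0.917 to 0.920. Of 8 embryonal carcinoma marker genes 7 were above background, or 10 of 14 probe sets against 38.1% of all on the array. Pou5f1, Sox2, Nanog and Zfp42 had mean signals of 6809, 4794, 4866 and 6137. Fut4, 1 of the fucosyltransferase genes linked to the SSEA-1 sugar, was the marker gene of the 8 that was not above, with probe set means of 2.53 and 15.1. Other fucosyltransferase genes were not examined here. None of 9 endoderm or 6 fibroblast marker genes passed limma's test for lying above, with 0 of 24 and 0 of 13 probe sets against the same 38.1%. Still, 3 endoderm probe sets, of Gata6 and Sox17, had an unadjusted p under 0.05 and 0 fibroblast ones did. In 7 of 11 alternative settings 1 to 4 endoderm genes did pass, Gata6, Sox17 or both, with Gata4 and Hnf4a added under the lowest threshold, from bacterial controls; the fibroblast count stayed at 0 in all 11. In the fit as reported the highest mean signal was 69.7 among the endoderm and 39.3 among the fibroblast probe sets. The endoderm list did not hold the matrix genes Lamb1 and Col4a1, products of differentiated F9 cells. Both had probe sets above background, with means of up to 250.4 and 1870, so the endoderm count depends on the genes listed.

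In these undifferentiated cells the carrier Fabp5 stood far above background, the retinol dehydrogenase Rdh10 clearly so in 1 of its 2 probe sets, and the carrier Crabp2 slightly. The importer Stra6 lay below the threshold. The hydroxylase gene Cyp26b1 did so as well, with a limma adjusted p of 0.0456 and a call kept in 6 of 11 alternative settings. Crabp1, Cyp26a1, Aldh1a2 and Dhrs3 had neither call. By probe set, 4 of 11 were above, against 38.1% of all probe sets on the array, and 2 of 11 were below, against 29.6%. The first share lies near that of the array as a whole, and the second rests on 2 probe sets. The median of the 11 was 0.21 log2 units over the threshold and that of all probe sets -0.43. Without any test, 6 of the 11 exceeded the threshold on all 3 arrays, against 41.0% of all probe sets.

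**Figure D1:**
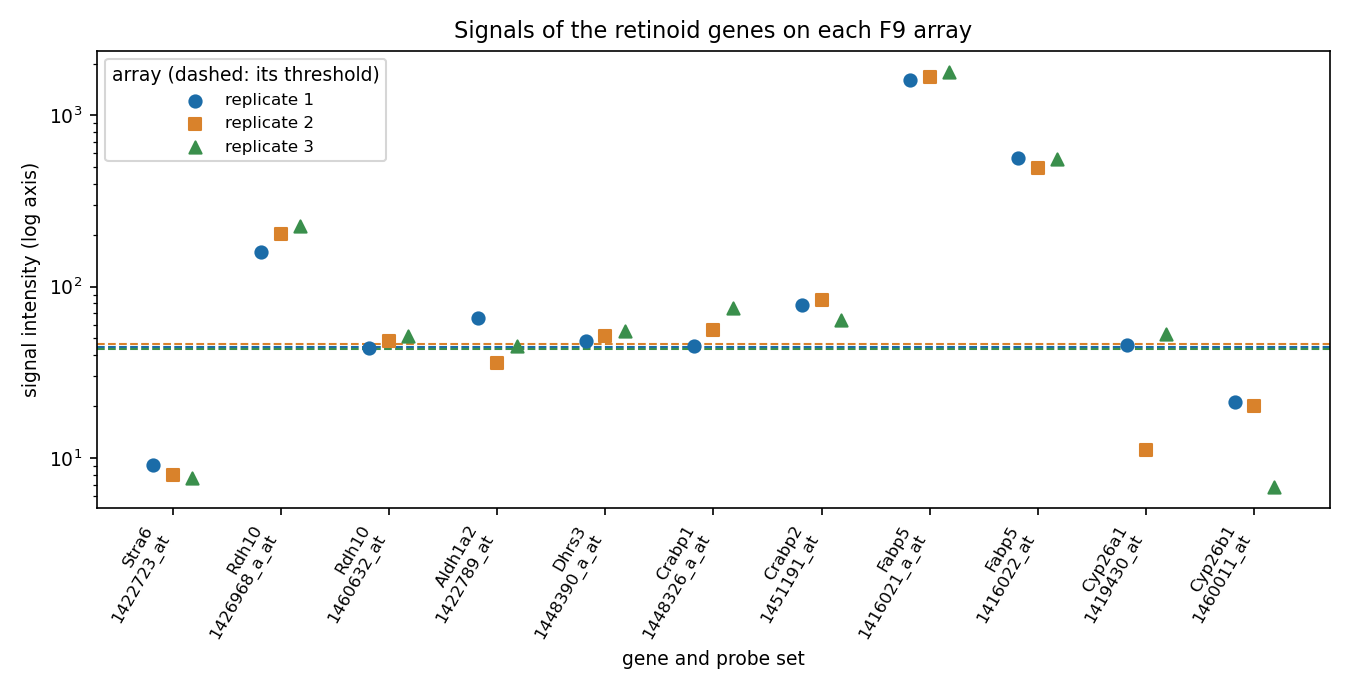
Signal intensity (log axis) of each of the 11 probe sets on the 3 F9 arrays, 1 mark per array, with each array's background threshold as a dashed line. Fabp5 lies between 494 and 1803, Stra6 between 7.62 and 9.10, and the low Cyp26a1 value of 11.2 belongs to replicate 2.

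Uptake was represented by Stra6, the membrane receptor that takes up retinol from its plasma carrier and a gene named for its stimulation by retinoic acid. Its probe set read 9.10, 7.99 and 7.62 on replicates 1, 2 and 3. All 3 signals were low and close together, with an SD of 0.13 log2 units where the median SD of probe sets called below was 0.70. The mean lay 2.44 log2 units under the threshold (SE 0.12, 95% interval -2.81 to -2.08, limma adjusted p = 0.0041 for lying below), that is at 0.184 times it.

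Synthesis begins with Rdh10, the retinol dehydrogenase that carries out most of the first oxidation in the embryo. Probe set 1426968_a_at read 160, 203 and 227, above the threshold on each array. Its mean was 2.13 log2 units over the threshold (SE 0.16, limma adjusted p = 0.0012), or 4.37 times it. The second Rdh10 probe set, 1460632_at, read 43.8, 48.2 and 51.7, with replicate 1 under its array's threshold and the other two over theirs. Its mean was 0.10 log2 units over (SE 0.12, limma adjusted p = 0.562), so the call for the gene rests on the first probe set. Probe sets differ in probe affinity and in the transcript stretch they match, and their signals were not set against each other.

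Aldh1a2 encodes the retinaldehyde dehydrogenase that makes most of the early embryo's retinoic acid. Its signals were 65.7, 35.9 and 45.1. Replicate 2 was below the threshold, replicate 3 just over it and replicate 1 higher. The mean sat at the threshold, 0.09 log2 units over it (SE 0.23, 95% interval -0.63 to 0.80, limma adjusted p = 0.837), and at -0.15 without replicate 1. Dhrs3, the reductase that returns retinaldehyde to retinol and is itself known to be induced by retinoic acid, read 48.3, 51.8 and 55.5. Each value exceeded its array's threshold by a little. Dhrs3 nevertheless did not pass, at 0.21 log2 units over (SE 0.12, 95% interval -0.15 to 0.58, limma adjusted p = 0.204).

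The binding proteins are small cytosolic carriers of one lipid-binding family. CRABP2 is known to hand retinoic acid to RAR receptors, FABP5 can hand it to PPARδ, and CRABP1 is linked to its turnover. Fabp5 probe set 1416021_a_at read 1611, 1672 and 1803. Its other probe set, 1416022_at, read 560.5, 494 and 557. Both sat far over the threshold on every array, with little spread. Their means were 5.25 log2 units (SE 0.12, limma adjusted p = 0.00011) and 3.59 log2 units (SE 0.12, limma adjusted p = 0.000177) over it, 37.9 and 12.0 times the threshold. FABP5 also carries ordinary long-chain fatty acids, so its level is not specific to retinoid handling. RefSeq lists a related pseudogene, Fabp5l2, and whether its transcripts add to these signals was not tested.

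Crabp2 read 78.1, 83.4 and 64.2, over the threshold on all 3 arrays and lowest on replicate 3. The mean was 0.74 log2 units over it (SE 0.13, 95% interval 0.36 to 1.13, limma adjusted p = 0.011), or 1.68 times the threshold. The limma adjusted p was 0.0709 without replicate 1 and 0.0653 without replicate 2, which ended the call, and 0.0325 without replicate 3. At the 99th percentile of background Crabp2 was 0.36 log2 units over (limma adjusted p = 0.226). Crabp1 read 45.0, 56.1 and 74.9. Replicate 1 was barely over its threshold and replicate 3 stood out as the highest. The mean was 0.36 log2 units over (SE 0.21, 95% interval -0.27 to 1.00) and did not pass (limma adjusted p = 0.211).

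**Figure D2:**
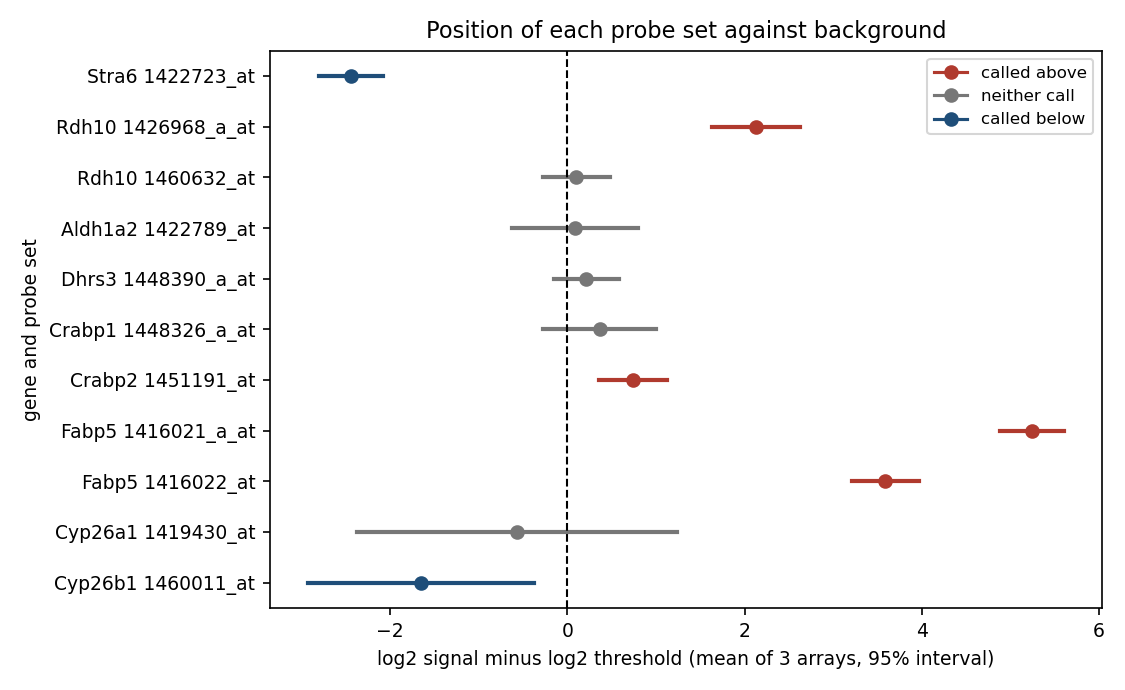
Mean log2 signal minus log2 threshold of each probe set over the 3 arrays (points) with limma's 95% interval (bars); the dashed line at 0 is the threshold and colours give the call. Both Fabp5 probe sets and 1 of Rdh10 lie clear of 0, Crabp2 narrowly so, and Cyp26a1 has the widest interval, from -2.38 to 1.24.

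Breakdown falls to Cyp26a1 and Cyp26b1, cytochrome P450 enzymes that hydroxylate retinoic acid; Cyp26a1 is known as one of the most strongly retinoic acid-induced genes. In the RefSeq promoter windows (GRCm38.p6, from 250 bases before to 50 after a transcript start), Cyp26a1 was the 1 gene among the 6 members with a window that held a paired receptor-binding hexamer. The hexamers searched were AGGTCA, the form with T in the middle, AGTTCA, and the forms of both that begin with G, GGGTCA and, with T in the middle, GGTTCA; a hit was any of them followed in the same direction by any of them with 5 bases between, on either strand. Of all 32851 windows 0.0974% held such a repeat. Another of them was a window of Rarb, the retinoic acid receptor β gene known for this element. The windows of 30 bases below show both repeats, 5′ to 3′, with the hexamers in capitals; each lies inside the span of its gene record in RefSeq, upstream of the transcript start of that window, 15 bases from it for Cyp26a1 and 36 for Rarb.
Cyp26a1, chr19:37697769-37697798, minus strand: caaattAGTTCAcccaaAGTTCAtctttaa
Rarb, chr14:16575506-16575535, minus strand: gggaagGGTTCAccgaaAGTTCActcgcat
Both repeats have AGTTCA as the second hexamer. No receptor binding was measured, so a match describes letters only. With 1 or 2 bases between the hexamers, 0 of the 11 member windows had a repeat, against 0.222% and 0.268% of all windows.

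The Cyp26a1 probe set read 45.8, 11.2 and 53.0. Replicates 1 and 3 were over the threshold, and replicate 2 was far under it, a range of 4.73-fold between arrays. The mean of -0.57 log2 units (SE 0.59, 95% interval -2.38 to 1.24) gave neither call (limma adjusted p = 1 above and 0.384 below). The SD of 1.28 log2 units compares with a median of 0.81 over all probe sets with neither call. Without replicate 2 the mean was 0.17 log2 units over the threshold (limma adjusted p = 0.515), so the sign rested on that array. The interval spans 0.193 to 2.36 times the threshold, and levels within it were not resolved here.

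Cyp26b1 read 21.2, 20.0 and 6.74, under the threshold on all 3 arrays and lowest on replicate 3. Its mean was -1.65 log2 units (SE 0.42, 95% interval -2.93 to -0.38), called below with a limma adjusted p of 0.0456. That call was lost without replicate 1 (0.0821) or replicate 2 (0.104), and with the 90th percentile as threshold (0.0554). The signal stayed under the threshold in each of these fits. Rarb itself, carrying the other repeat, read 16.2, 27.9 and 2.17, under the threshold on each array but with neither call. Rarb was called below with the 99th percentile (limma adjusted p = 0.0283), a pseudocount of 16 (0.0207) or a prior following the mean signal (0.0273).

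Other genes of retinoid handling, listed by role, were above background in 8 of 33 genes with a probe set, or 11 of 55 probe sets against 38.1% of all; 23 of the 55 were below, against 29.6%. Their median was -1.34 log2 units, against -0.43 for all probe sets. In 5 of these 8 genes, namely Lrp2, Dgat1, Adh5, Rdh14 and Dhrs7, another probe set was not above.

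Among carriers and retinol handling genes 2 of 12 passed, or 3 of 22 probe sets against 38.1% of all. Lrp2, the endocytic receptor megalin that takes up retinol-binding protein in the kidney, read 122, 118 and 138 in 1 probe set, 1.49 log2 units over the threshold (limma adjusted p = 0.00167), and passed in a second one too at 1.14 (0.00412). Dgat1, a triglyceride-making enzyme that can also esterify retinol, read 298, 282 and 305. Rbp4, the plasma carrier that STRA6 binds, read 35.7, 45.4 and 55.3 around the threshold and had neither call (limma adjusted p = 1). The probe sets of Lrat, the main retinol esterifying enzyme, had means of 13.4 and 25.6, the first called below. Cyp26c1, the other CYP26 enzyme, was not analysed here.

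The oxidoreductases passed in 6 of 15 genes, or 8 of 24 probe sets against 38.1% of all. Adh5, a widely expressed formaldehyde-clearing alcohol dehydrogenase, had signals of 5704, 5638 and 6275. Rdh11, which also reduces retinaldehyde, read 398, 352 and 488 in 1 probe set and 528, 399 and 434 in the other. Rdh13 read 204, 232 and 244. Rdh14 read 112, 88.5 and 180 in 1 probe set, with a call lost without replicate 1 (limma adjusted p = 0.0681). Its other probe sets were both called below, with means of 23.1 and 8.65. Dhrs4, a carbonyl and retinal reductase, had probe set means of 598 and 961. Dhrs7, of the same short-chain family, read 148, 145 and 136 in 1 probe set, and its others were both called below, with means of 21.0 and 22.4. These enzymes accept other substrates as well, and their transcripts do not show which they use here. Adh1 and Adh7, alcohol dehydrogenases that oxidise retinol, had neither call or lay below in all 3 of their probe sets, with means from 6.03 to 36.3.

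The retinaldehyde dehydrogenases other than Aldh1a2 had no probe set above background in limma's test, 0 of 7 against 38.1% of all. Of these 7, 0 had an unadjusted p under 0.05, and 3 were below, against 29.6% of all. Aldh1a1 read 12.8, 5.25 and 1.31 and was called below. The 3 Aldh1a3 probe sets had means of 26.0, 14.5 and 22.7, the second called below. The below calls of Aldh1a1 and Lrat, and that of Aldh1a3, were lost with the threshold from bacterial controls (limma adjusted p = 0.058, 0.0837 and 0.0999). That of Aldh1a1 was also lost without replicate 2 (0.112) or replicate 3 (0.0694).

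**Figure D3:**
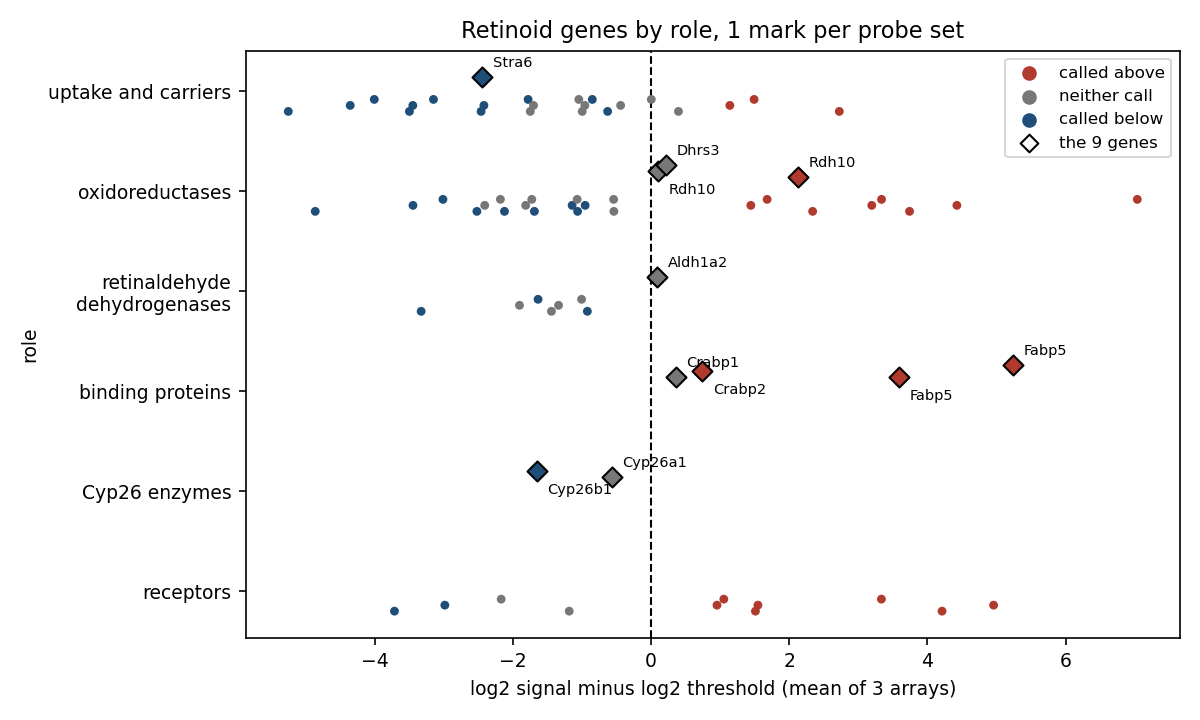
Mean log2 signal minus log2 threshold over 3 arrays for every probe set of the 9 genes (diamonds, named) and of the other retinoid genes and receptors (dots), grouped by role; colour gives the call and the dashed line the threshold. Dots of the oxidoreductases reach 7.04 (Adh5), whereas all 7 dots of the dehydrogenases of retinaldehyde lie left of 0.

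The receptor genes listed were those of the retinoic acid and retinoid X receptors, and Ppard. They were above background in 5 of 7 cases, or 7 of 11 probe sets against 38.1% of all. Ppard was among those 5 genes. Rarg read 1444, 1571 and 1178 in 1 probe set and 834, 986 and 689 in the other; Rara 138, 166 and 97.0; Rxrb 502, 461 and 395. Rxra passed in 2 of 3 probe sets, with means of 133 and 88.1; leaving out replicate 1 ended the call of the first (limma adjusted p = 0.0681), and that of the second ended without replicate 2 (0.084) or replicate 3 (0.0543). Ppard, the PPARδ receptor that FABP5 can serve, read 121, 85.0 and 77.1 in 1 probe set, 1.05 log2 units over the threshold (limma adjusted p = 0.0125), a call that ended without replicate 2 (0.0514). Its second probe set lay below, with a mean of 3.54.

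Genes listed for their known response to retinoic acid passed in 7 of 12 with a probe set, or 12 of 29 probe sets, near the 38.1% of all. With the 99th percentile as threshold the number was 5 genes, without Tgm2 and Cdx1. Stra8, a germ cell gene named like Stra6 for stimulation by retinoic acid, read 141, 152 and 128, all over the threshold by 1.65 log2 units on average (limma adjusted p = 0.000815). Hoxb1, an early responding Hox gene, read 26.0, 3.57 and 6.49, with neither call; it was called below without replicate 1 (limma adjusted p = 0.0295) and in 3 other settings. Cdx1, a posterior homeobox factor, read 110, 108 and 66.2 (limma adjusted p = 0.0157), a call lost without replicate 1 (0.0767) or replicate 2 (0.0822) and at the 99th percentile (0.0593). Meis2, a Hox cofactor, had means of 230 and 238 in the 2 of its 4 probe sets that passed. Tgm2, a transglutaminase, passed in 2 of 6 probe sets, with means of 80.9 and 74.9; leaving out replicate 2 (limma adjusted p = 0.0701) or replicate 3 (0.0602) ended the call of the second, and at the 99th percentile neither passed (0.159 and 0.305). The matrix genes Lamb1 and Col4a1, products of differentiated F9 cells, passed with means of up to 250.4 and 1870. Hoxa5 passed in 1 of 2 probe sets, 1443803_x_at, with 225, 309 and 155. The other Hoxa5 probe set was called below, with a mean of 10.1. So were a Lamb1 and a Tgm2 probe set, with means of 5.86 and 5.43. The lowest passing Lamb1 probe set, with a mean of 83.2, lost its call without replicate 1 (0.0963) or replicate 3 (0.0803). These levels have no treated sample beside them, so a starting level and a response to retinoic acid cannot be told apart here.

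Promoter composition differed among the members. A window was called CpG-rich with over 50% G and C and an observed-to-expected CpG ratio over 0.6. Such windows occurred in 3 of the 6 genes with a window, Cyp26a1, Aldh1a2 and Dhrs3, and made up 3 of their 11 windows against 33.3% of all. Aldh1a2 had 78% G and C with a ratio of 1.11, and Cyp26a1 62.3% with a ratio of 0.894. The CpG-rich window of Dhrs3 had 58.7% with a ratio of 0.824. Its other windows, with 45% and 45.3% G and C, were not CpG-rich. The 4 Stra6 windows had ratios from 0.184 to 0.365, that of Cyp26b1 0.314 and that of Crabp1 0.543. The genes called below, Stra6 and Cyp26b1, thus had no CpG-rich window, and nor did Crabp1, which had neither call. All 3 genes that had such a window were in neither call, and with 6 genes this is a description. Crabp2, Fabp5 and Rdh10, the genes called above, were not analysed in this respect.

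Calls of the members under each alternative setting fell into a few kinds. Both Fabp5 probe sets and Rdh10 1426968_a_at were above background in 11 of 11 alternatives. Stra6 was below in all 10 alternatives that tested it, as a filter on low signals removed it from the eleventh. The genes near the threshold moved with the threshold itself: with 27 bacterial control probe sets as background, whose 95th percentile was 21.3, 27.5 and 19.8, Crabp1 (1.34 log2 units, limma adjusted p = 0.00907), Dhrs3 (1.19, 0.00789), Aldh1a2 (1.07, 0.0287) and the second Rdh10 probe set (1.08, 0.0114) were called above as well. That made 8 of 11 probe sets and 6 of 9 genes, beside 46.8% of all probe sets. Cyp26a1 had neither call in any of the 11 alternatives.

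**Figure D4:**
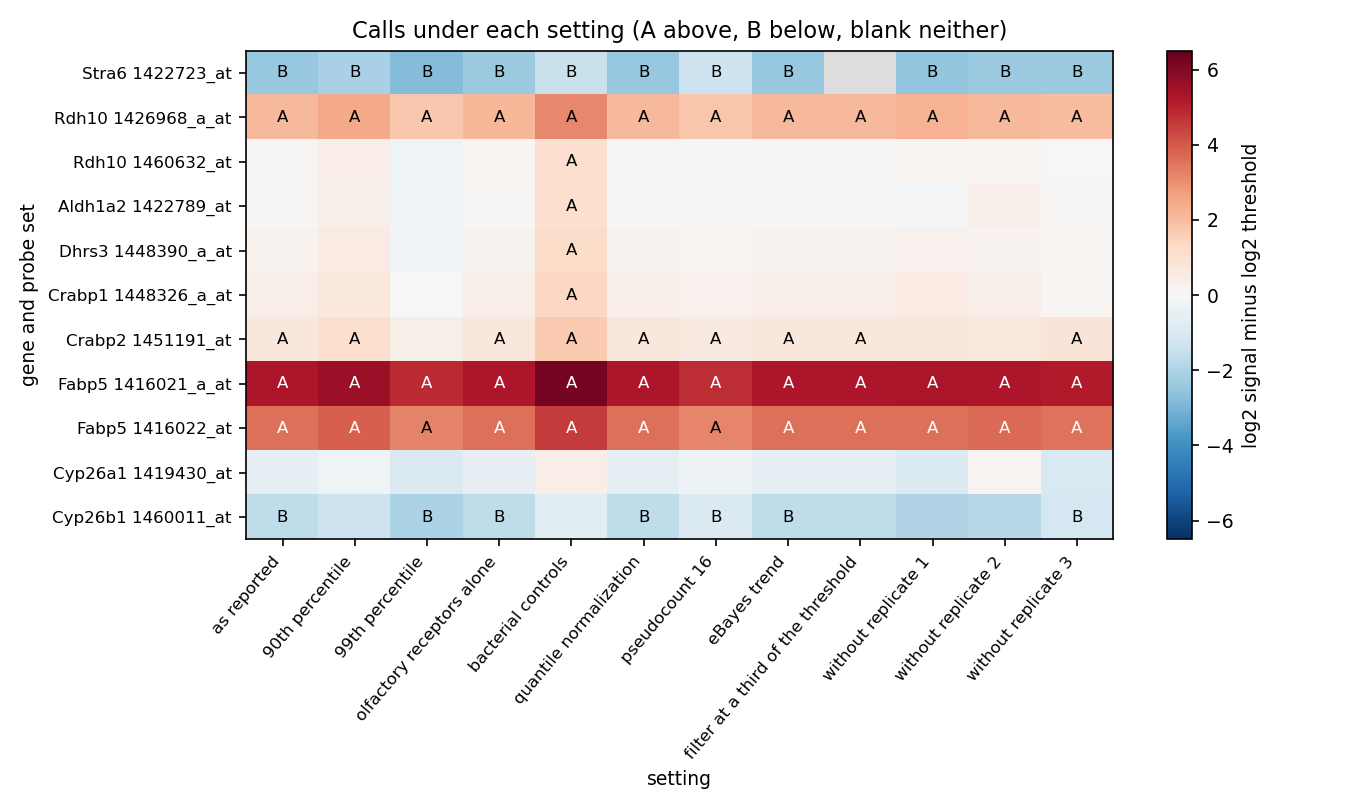
Fitted log2 signal minus log2 threshold (colour) of the 11 probe sets as reported and under 11 alternative settings, with A for a call above, B for a call below and grey where a filter removed the probe set. The Fabp5 rows carry A throughout, and Crabp1, Dhrs3, Aldh1a2 and the second Rdh10 probe set carry it with bacterial controls alone.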

How the data were processed

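The authors deposited 1 signal intensity per probe set and array, on a linear scale, made with GCOS 1.4 per the submitters' processing notes. For the signal algorithm and detection calls the sources used here give nothing. The intensities trimmed by 2% at each end averaged 250.0 on every array, so arrays had been scaled to a common mean, and a change in RNA content per cell would not be seen. No further normalization was applied. Symbols came from a platform annotation of 2016: 34945 probe sets other than the 64 controls had 1 symbol, 932 several and 9160 none; 0 of those with several named a member. All 9 members matched a RefSeq gene ID, and 6 had promoter sequences (RefSeq, GRCm38.p6). Log2 signal minus log2 threshold was fitted in limma 3.58.1 (R 4.3.3; lmFit with an intercept, eBayes) over all 45101 probe sets, one-sided in each direction, with no pseudocount or filter, and intervals are 95%. The 126 background probe sets stand for 113 genes, pseudogenes left out; 1 was called above. The fit was tested on simulated data. The number of arrays limits the precision.

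The members, lists, tests and alternatives were chosen with earlier results of these data known. Every member probe set is given; of the other lists, the rule names the genes with a call above and, whatever their call, a few more, among them Rbp4, Lrat, Aldh1a1, Aldh1a3, Cyp26c1, Rarb, Hoxb1 and Stra8; not all of these are reported here. Other genes named were chosen after their values were seen. Alternatives were other percentiles and background sets, quantile normalization, a pseudocount of 16, a prior that follows the mean signal, a filter at the threshold divided by 3, no _s_at or _x_at probe sets, and each array left out. Since replicates of 1 group hold no condition, no gene was ranked by likeness of pattern.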

Additional observations from a re-analysis of the deposited data

How the results depend on the processing

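No paired analysis was possible because the series has 1 group. The members called above numbered 4 probe sets and 3 genes; leaving out 1 array gave 3 to 4 probe sets and 2 to 3 genes, and bacterial controls gave 8 and 6. The members called below numbered 2 probe sets, 1 with the 90th percentile, 1 with bacterial controls, 0 with the filter, which removed Stra6, and 1 to 2 without 1 array. Of all probe sets 29.6% were called below, against 47.2% with the 99th percentile, 13.5% with bacterial controls, 0% with the filter, which takes out the lowest signals, and 15.8% to 19.2% without 1 array. A threshold from bacterial controls raised Crabp1 to 1.34, Dhrs3 to 1.19, Rdh10 1460632_at to 1.08 and Aldh1a2 to 1.07 log2 units, all then called; the lower threshold itself makes that change. Crabp2 lost its call at the 99th percentile (0.36) and over single arrays left out ranged from 0.69 to 0.83. Cyp26b1 lost its call below with the 90th percentile (-1.34), bacterial controls (-0.67) and the filter (-1.65), and ranged from -1.94 to -1.14 with 1 array left out. The cause was not tested. The alternatives were also run for some probe sets of the other retinoid genes, receptors and response genes. These were the probe sets called above and all those of Rbp4, Lrat, Aldh1a1, Aldh1a3, Rarb, Hoxb1 and Stra8. The set was thus partly picked by its calls. Of 425 alternative values, 393 kept their call or lack of one, 21 lost one, 11 gained one and 0 reversed. Of 44 alternative gene counts for these lists and the markers, 23 equalled the count reported, 20 differed within 1.5 times and 1 by more. Interval width limits what can be resolved. The 95% interval's median half-width was 0.37 log2 units for probe sets called above, 1.03 for those called below and 1.17 for those with neither call. The call itself depends on that width.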

Other observations

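The repeat of receptor-binding hexamers with 5 bases between was found in the promoter windows of 31 genes, of which 11 had a probe set with their symbol alone. This set was looked at after the values were seen and has no test. Of the 11, Blvrb and Syndig1 had a probe set above background (18.2%), against 52.7% of all 14453 genes with both a window and a probe set. Cyp26a1, Rarb, Cfap45, Gm14133, Hbb-y, Ppbp, Prokr2, Prss27 and Tnfsf13b had none above.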
